A study of Mus musculus with 6 samples.

Results

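In a murine lung cancer cell line with and without added ZEB1, 24214 features were counted. The 9 described here are transcription factors that maintain epithelial identity. They were chosen by their gene symbols from 4 families, with earlier results of these data known. They are the grainyhead-like factors Grhl1, Grhl2 and Grhl3, the zinc-finger repressors Ovol1 and Ovol2, the epithelium-specific ETS factors Elf3, Ehf and Elf5, and the Krüppel-like factor Klf5. All 9 had a row in every table. The dataset compared 393P_ZEB1 cells, transfected with a ZEB1 expression vector, with 393P_vector cells, transfected with the empty vector, in 3 RNA sequencing samples each. The parent of both is an epithelial lung adenocarcinoma (LUAD) cell line, labelled as KP cells of C57BL/6 strain, and both groups were grown in the same RPMI-1640 medium with serum. Stable transfectants of LUAD lines were obtained by drug selection. The promoter of the vector, the species of the ZEB1 cDNA and whether each line is 1 clone are not given in the sources used here, and each group is a single line. The labels do not say whether the 3 samples of a group came from separate cultures, so the p-values measure only the spread between these samples, which may be technical.

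GRHL factors bind promoters and enhancers of junction genes and help keep epithelial chromatin accessible. OVOL factors repress mesenchymal genes, among them Zeb1, which in turn represses epithelial genes through E-box sequences. Elf3 and Ehf activate genes of differentiated epithelia, Elf5 is best known in the mammary and lung epithelium and in the trophoblast, and Klf5 drives both proliferation and differentiation in the basal and glandular epithelia where it is expressed.

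Samples held between 54442450 and 79158012 counts, and the detection floor was set at 3 counts. On these total counts the floor was 0.0379 to 0.0551 CPM (reads scaled to the library size). All other CPM given here were on library sizes normalized by edgeR's TMM method, so floor and levels are on slightly different scales. Intervals and floors of this kind cover counting error only. 393P_vector replicate 3 stood apart from its group, with 7.49% and 8.1% of genes at least 2-fold from replicates 1 and 2, against 0.14% between those 2 and at most 0.43% between 393P_ZEB1 samples. Zeb1 itself rose from 21.5 ± 0.435 CPM (SD, n = 3) to 51.7 ± 3.01 CPM, a log2 fold change of 1.26 (SE 0.10, edgeR adjusted p = 6.06e-05). These counts include any transgene reads that align to it. Zeb1 lies on chromosome 18, whose tested genes had a median log2 fold change of 0.64. Among autosomes such medians ran from -0.43 (chromosome 17) to 0.64 (chromosome 18), and 6 genes on chromosome Y had -6.89. The part of the chromosome in the change of Zeb1 was not tested. Of 5 epithelial markers 4 fell. Epcam, a surface adhesion molecule, was nearly lost, from 122 ± 51.8 to 1.31 ± 0.611 CPM (log2 fold change -6.54), and Cdh1, encoding E-cadherin, went from 162 ± 61.2 to 9.51 ± 0.718 CPM, while the keratin genes Krt8 and Krt18 fell by 0.61 and 0.77 on the log2 scale and Krt19 (-0.39) did not pass. The summed level of the 5, carried by the keratins, was 4370 to 4997 CPM against 2745 to 3041 CPM. Of 6 markers of differentiated lung epithelium, none passed the filter on low counts, Nkx2-1 included, and Scgb1a1 was at 0 in all 6 samples. Summed levels of markers of other cell types also differed between the groups. The summed level of 6 fibroblast markers was 9.84 to 10.9 CPM against 2.63 to 3.59 CPM, that of 6 leukocyte markers 2.11 to 4.31 CPM against 1.42 to 1.70 CPM, and that of 4 endothelial markers 2.26 to 2.46 CPM against 0.630 to 0.868 CPM. Each sum was carried mostly by 1 gene, Acta2 (7.89 to 1.70 CPM), Cd68 (2.04 to 1.03 CPM) and Kdr (1.91 to 0.330 CPM). Others, such as Pdgfrb (0.206 to 0.467 CPM) and Tek (0.0585 to 0.149 CPM), went the other way. Of the genes that passed the filter, 2 of 4 fibroblast markers were lower and 1 was higher, 1 of 3 leukocyte markers was lower and 1 of 2 endothelial markers was lower. Of all 16 genes, Lum and Lyz2 had at most 3 counts in any sample. The part of such markers in the results was not tested.

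Of the 9 factors, 6 were lower in 393P_ZEB1 cells and none was higher. Grhl2, Ovol1, Ovol2, Elf3, Ehf and Klf5 passed the threshold (an adjusted p below 0.05, Benjamini-Hochberg over all 13892 genes tested with edgeR), while Grhl1 and Grhl3 did not and Elf5 was too low to test. Over all tested genes 19.3% were called lower and 18.3% higher, or 37.6% in either direction. The median log2 fold change of the 8 tested factors was -3.35, against -0.02 over all tested genes, and 4 of the 8 were below -3, as were 380 of all tested genes (2.74%). Ovol1, Ovol2 and Ehf passed the filter through their 393P_vector samples alone, so a difference in these 3 was a condition of their being tested. In each of the 6 called factors all 393P_vector samples lay above all 393P_ZEB1 samples, a separation in this direction found in 26.5% of tested genes. An exact permutation test of log2 CPM gave p = 0.1 for each of them, two-sided, which is the smallest p that 3 samples against 3 allow. In bulk RNA, fewer cells that express a gene and less RNA per cell cannot be told apart.

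**Figure D1:**
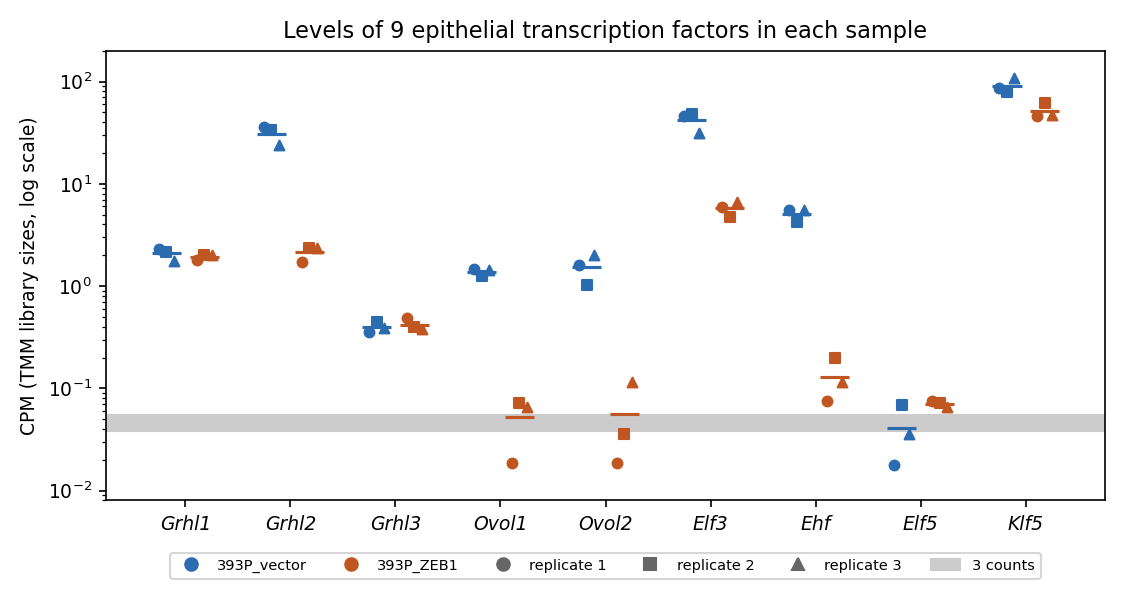
Level of each factor in each sample, in CPM on TMM library sizes (log axis). Points are single samples, shaped by replicate number and coloured by group, and short bars are group means (n = 3). The grey band spans the CPM that 3 counts represent on total counts, without TMM scaling. Grhl2, Elf3, Ehf, Ovol1, Ovol2 and Klf5 separate by group, Grhl1 and Grhl3 overlap, and Elf5 lies at or near the band in all 6 samples.

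Per exon length, the order of the factors changed between the groups. In 393P_vector cells Klf5 had the highest level, 53.5 ± 10.9 RPKM (SD, n = 3, reads scaled by exon length and library size), followed by Elf3 with 21.1 ± 3.75 RPKM and Grhl2 with 6.30 ± 1.08 RPKM. Klf5 made up 63.4% and Grhl2 7.48% of the summed RPKM of all 9. Ehf (1.18 ± 0.199 RPKM) and Ovol2 (1.03 ± 0.360 RPKM) came next and their samples overlapped. Grhl1 (0.593 ± 0.0569 RPKM), Ovol1 (0.483 ± 0.0473 RPKM) and Grhl3 (0.147 ± 0.0153 RPKM) followed without overlap between neighbours, and Elf5 was last. In 393P_ZEB1 cells Klf5 (29.96 ± 5.40 RPKM) and Elf3 (2.90 ± 0.459 RPKM) kept the first places, and Klf5 made up 87.8% and Grhl2 1.29% of the sum. Grhl1 (0.557 ± 0.0404 RPKM) then stood above Grhl2 (0.440 ± 0.0781 RPKM), whose lowest and highest samples were 0.35 and 0.49 RPKM against 0.51 and 0.58 RPKM for Grhl1. Grhl3 was at 0.153 ± 0.0153 RPKM. Ovol2, Ehf, Elf5 and Ovol1 all lay between 0.01 and 0.08 RPKM, a range in which their order could not be told from their spread.

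Of the grainyhead-like genes, which encode CP2-type DNA-binding proteins, only Grhl2 passed the test. Grhl2 (chr15:37233036-37363568 on GRCm38, plus strand) measured 35.6, 33.3 and 23.7 CPM in 393P_vector replicates 1 to 3 and 1.72, 2.38 and 2.36 CPM in 393P_ZEB1 replicates 1 to 3. Every 393P_ZEB1 sample was far below every 393P_vector sample, and replicate 3 was the lowest of the 393P_vector group. The group means were 30.9 ± 6.33 and 2.15 ± 0.374 CPM, so that 6.97% of the level remained, and the log2 fold change was -3.84 (SE 0.22, 95% interval -4.36 to -3.32, edgeR adjusted p = 1.03e-05). Of its 16 annotated exons, 15 had over 10 reads in each 393P_vector sample, against 1, 1 and 2 in the 393P_ZEB1 samples. The median log2 fold change of chromosome 15 was -0.33, and relative to it Grhl2 was at -3.51. Its nearest tested neighbour was Ncald, which encodes a calcium sensor, with a gap of 2606 bases between the edges of the 2 genes. Ncald moved the other way, from 1.57 to 9.79 CPM (log2 fold change 2.64, edgeR adjusted p = 2.50e-05). None of the other 5 nearest tested genes passed the test.

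Grhl1 (chr12:24572287-24617391, plus strand), a regulator of desmosomal cadherins in the epidermis, was low in both groups. It measured 2.30, 2.18 and 1.77 CPM in 393P_vector samples and 1.79, 2.00 and 2.03 CPM in 393P_ZEB1 samples. The groups overlapped, with means of 2.08 ± 0.276 and 1.94 ± 0.128 CPM. The log2 fold change was -0.10 (SE 0.19, edgeR adjusted p = 0.716), with a 95% interval of -0.53 to 0.33. A decrease of the size seen in Grhl2 lay outside this interval, and changes inside it could not be told from none.

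Grhl3 (chr4:135541888-135573620, minus strand), which is needed for the epidermal barrier and neural tube closure, was lower still. Its counts were 20, 26 and 32 in 393P_vector samples and 26, 22 and 23 in 393P_ZEB1 samples, or 0.394 ± 0.0449 and 0.420 ± 0.0583 CPM. Samples of both groups overlapped, and the log2 fold change was 0.09 (SE 0.26, 95% interval -0.50 to 0.68, edgeR adjusted p = 0.81). Of the 6 nearest tested genes 4 were higher in 393P_ZEB1 cells, Il22ra1, an interleukin receptor subunit, by 0.90 and Rcan3, Il28ra and Nipal3 by 0.73, 0.71 and 0.68 on the log2 scale, and the call of Il28ra was lost without 393P_ZEB1 replicate 1. Within samples, Grhl1 and Grhl3 stood higher relative to Grhl2 in 393P_ZEB1 cells. The ratio of Grhl1 to Grhl2 per exon length was 0.0905, 0.0917 and 0.105 in 393P_vector samples and 1.46, 1.18 and 1.21 in 393P_ZEB1 samples. All 393P_ZEB1 ratios exceeded 1 and all 393P_vector ratios were far below it, a log2 difference of 3.74 (exact permutation p = 0.1, the smallest possible). For Grhl3 to Grhl2 the log2 difference was 3.93 (exact permutation p = 0.1).

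**Figure D2:**
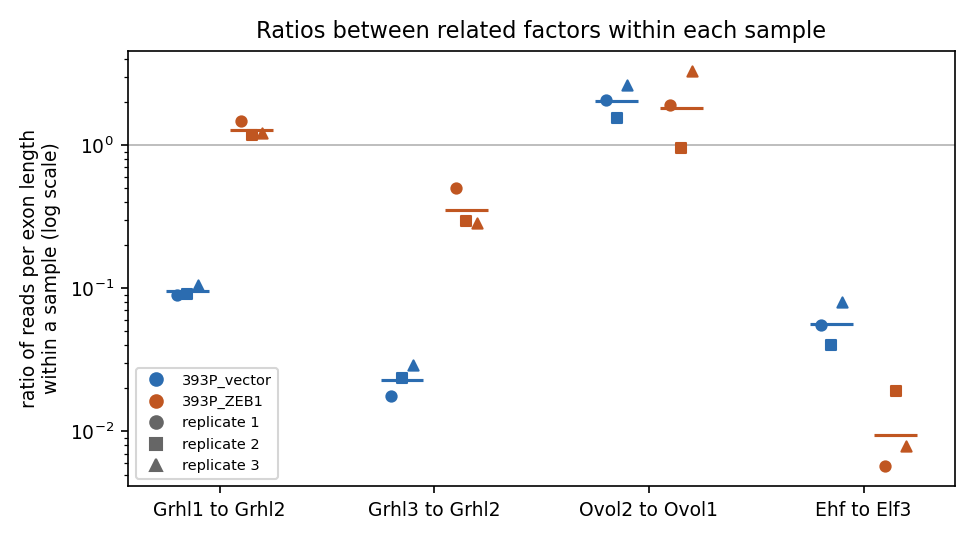
Within-sample ratios of related factors per exon length (log axis), with points for single samples and bars for the geometric mean of each group (n = 3). Grhl1 to Grhl2 moves from far below 1 to above 1, Ehf to Elf3 falls, and Ovol2 to Ovol1 overlaps between groups.

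Promoter windows were searched for E-box forms that ZEB1 is known to bind. These were CACCTG, searched on both strands of each window, and a related form that reads CAGGTA on 1 strand and, on the opposite strand, TACCTG. The 2 forms cannot match at the same position and were counted separately. A window runs from 250 bases before to 50 bases after the transcription start in RefSeq on GRCm38.p6. Of all 32851 windows, 20.2% held CACCTG, 12% held CAGGTA and 29.5% held either. Windows were found for 5 of the 9 factors, Grhl1, Grhl3, Ovol2, Elf3 and Elf5. The windows of Grhl1 (first start, chr12:24572037-24572336, plus strand) and Grhl3 (chr4:135573583-135573882, minus strand) are printed to set beside each other 2 genes that did not pass the test and that differ in these letters, which are in capitals.
Grhl1: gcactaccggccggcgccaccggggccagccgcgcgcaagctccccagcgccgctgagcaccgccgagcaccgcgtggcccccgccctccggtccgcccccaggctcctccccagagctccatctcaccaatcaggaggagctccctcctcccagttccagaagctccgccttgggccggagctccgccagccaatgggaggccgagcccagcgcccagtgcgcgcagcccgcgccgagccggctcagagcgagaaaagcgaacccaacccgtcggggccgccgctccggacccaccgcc
Grhl3: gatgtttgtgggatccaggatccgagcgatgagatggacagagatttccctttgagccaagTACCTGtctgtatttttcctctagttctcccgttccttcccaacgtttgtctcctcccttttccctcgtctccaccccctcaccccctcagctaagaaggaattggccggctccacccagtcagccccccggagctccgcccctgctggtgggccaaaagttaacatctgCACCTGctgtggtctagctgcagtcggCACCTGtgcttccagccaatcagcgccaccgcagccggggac
Grhl3 held 2 CACCTG matches, beginning 19 bases before and 8 bases after the start, and 1 TACCTG match 189 bases before it. Neither Grhl1 window held either form. A match describes the letters of the window and not a site in use.

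Both OVOL genes, which encode repressors of mesenchymal genes, were nearly lost from 393P_ZEB1 samples. Ovol1 (chr19:5549137-5560575, minus strand) had 83, 74 and 119 counts in 393P_vector samples and 1, 4 and 4 counts in 393P_ZEB1 samples. The groups did not overlap, and the 393P_ZEB1 counts were at or next to the floor of 3. The means were 1.39 ± 0.112 and 0.0521 ± 0.0291 CPM, and the log2 fold change was -4.66 (SE 0.37, edgeR adjusted p = 4.71e-05). The ratio of summed counts, scaled to library size, was 26.3 with a 95% counting interval of 13.6 to 58.1. Exons with over 10 reads numbered 3, 3 and 4 of 4 in 393P_vector samples and 0 in each 393P_ZEB1 sample. None of the 6 nearest tested genes passed the test, and the median of chromosome 19 was -0.03.

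Ovol2 (chr2:144305176-144332080, minus strand), which maintains epithelial fate in the embryo and in mammary epithelium, had 91, 60 and 166 counts against 1, 2 and 7 counts. Here too the groups were apart, although 393P_vector replicates ranged from 1.02 to 2.00 CPM, the widest relative spread of the 6 called factors in that group. The means were 1.54 ± 0.493 and 0.0565 ± 0.0512 CPM, with a log2 fold change of -4.68 (SE 0.52, 95% interval -5.90 to -3.47, edgeR adjusted p = 0.000333) and a count ratio of 27.2 (95% counting interval 14.6 to 57.2). The ratio of Ovol2 to Ovol1 per exon length was 2.08, 1.54 and 2.64 in 393P_vector samples and 1.90, 0.948 and 3.32 in 393P_ZEB1 samples. These ratios overlapped (log2 difference -0.17, exact permutation p = 0.8), with 1 to 7 counts behind each 393P_ZEB1 value, so the depth could not show whether the 2 genes fell to different extents. Of the 6 nearest tested genes of Ovol2, Snx5, a sorting nexin, was higher (log2 fold change 0.57) and the others did not pass. The Ovol2 window (chr2:144331313-144331612, minus strand), printed as that of a gene that fell, held neither E-box form. Its start lies 718 bases from the start of the counted feature.
Ovol2: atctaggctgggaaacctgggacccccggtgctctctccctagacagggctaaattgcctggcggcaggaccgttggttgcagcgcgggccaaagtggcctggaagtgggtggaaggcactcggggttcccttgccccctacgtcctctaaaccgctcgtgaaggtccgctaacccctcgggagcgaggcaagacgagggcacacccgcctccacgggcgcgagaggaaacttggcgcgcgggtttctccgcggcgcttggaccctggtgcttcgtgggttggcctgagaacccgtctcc

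Of the ETS factors, Elf3 and Ehf fell and Elf5 had at most 4 counts in any sample. Elf3 (chr1:135253574-135258472, minus strand), an activator of keratin and junction genes, measured 45.7, 47.7 and 31.6 CPM in 393P_vector samples and 5.96, 4.73 and 6.58 CPM in 393P_ZEB1 samples. The groups were apart, and as for Grhl2 the lowest 393P_vector value was that of replicate 3. The means were 41.7 ± 8.75 and 5.76 ± 0.941 CPM, a log2 fold change of -2.85 (SE 0.21, 95% interval -3.34 to -2.37, edgeR adjusted p = 3.36e-05), with 13.8% remaining. Elf3 was still read along most of its length, since 9, 7 and 9 of its 10 exons had over 10 reads in 393P_ZEB1 samples, against 10 in each 393P_vector sample. Of its 6 nearest tested genes, the aminopeptidase gene Rnpep was lower (log2 fold change -0.64) and the R-spondin receptor gene Lgr6 higher (0.79). The call of Rnpep was lost without 393P_vector replicate 1 or 393P_ZEB1 replicate 2 or 3.

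Ehf (chr2:103263433-103303196, minus strand), a repressor and activator in differentiated epithelia, had the lowest log2 fold change of the 8 tested factors, with an interval that overlapped those of Ovol1 and Ovol2. Without 393P_ZEB1 replicate 3 Ovol2 was lower, at -5.70 against -5.19 for Ehf. The counts of Ehf were 315, 248 and 462 in 393P_vector samples and 4, 11 and 7 in 393P_ZEB1 samples. All 393P_ZEB1 samples were more than an order of magnitude below the lowest 393P_vector sample in CPM, with means of 5.11 ± 0.778 and 0.129 ± 0.0629 CPM. The log2 fold change was -5.28 (SE 0.33, 95% interval -6.04 to -4.53, edgeR adjusted p = 1.39e-05), and the count ratio was 39.9 (95% counting interval 26.2 to 64.0). Only 0.95% of tested genes had a lower log2 fold change. Relative to Elf3, Ehf was lower in every 393P_ZEB1 sample. The ratio of Ehf to Elf3 per exon length went from 0.0554, 0.0402 and 0.0800 to 0.00570, 0.0190 and 0.00792, without overlap, a log2 difference of -2.57 (exact permutation p = 0.1, the smallest possible). Of the 6 nearest tested genes of Ehf, Abtb2, a BTB-domain gene, was lower (log2 fold change -1.32) and the others, Cd44, Pdhx, Apip, Cat and Nat10, did not pass. The median of chromosome 2 was -0.05.

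Elf5 (chr2:103412098-103450988, plus strand) lies 108.9 kb from Ehf on the opposite strand. It had 1, 4 and 3 counts in 393P_vector samples and 4 in each 393P_ZEB1 sample, so no fold change is given. A difference was not detectable at this depth, and no exon had over 10 reads in any sample. The windows of Elf3 (chr1:135258423-135258722, minus strand) and Elf5 (first start, chr2:103411848-103412147, plus strand) are printed to set a gene that fell beside one near the floor in both groups, with E-box letters in capitals.
Elf3: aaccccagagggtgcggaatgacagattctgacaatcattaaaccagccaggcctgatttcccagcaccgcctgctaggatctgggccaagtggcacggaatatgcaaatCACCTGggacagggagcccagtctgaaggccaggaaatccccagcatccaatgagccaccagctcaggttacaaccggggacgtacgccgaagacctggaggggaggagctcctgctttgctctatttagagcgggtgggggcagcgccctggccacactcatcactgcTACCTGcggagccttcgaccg
Elf5: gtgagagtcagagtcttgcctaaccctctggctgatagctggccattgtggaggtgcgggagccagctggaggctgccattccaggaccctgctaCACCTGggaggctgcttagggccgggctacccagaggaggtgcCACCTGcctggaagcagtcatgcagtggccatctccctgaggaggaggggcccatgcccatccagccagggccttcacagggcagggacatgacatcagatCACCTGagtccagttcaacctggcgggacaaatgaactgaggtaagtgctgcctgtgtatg
Elf3 held 1 CACCTG match beginning 140 bases before the start and 1 TACCTG match 29 bases after it. The Elf5 window held 3 CACCTG matches, beginning 155, 112 and 11 bases before the start, a number reached by 0.365% of all windows, and its second window held 1. Among the 5 factors with a window, the letters were thus present in 1 that fell, absent in 1 that fell, and present in 2 of the 3 others.

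Klf5 (chr14:99298691-99313409, plus strand) changed least among the factors called lower. It measured 85.6, 79.0 and 107 CPM in 393P_vector samples and 45.5, 61.3 and 47.1 CPM in 393P_ZEB1 samples. The groups did not overlap, and replicate 3 was the highest of the 393P_vector samples, where for Grhl2 and Elf3 it was the lowest. The means were 90.6 ± 14.8 and 51.3 ± 8.68 CPM, a log2 fold change of -0.82 (SE 0.17, 95% interval -1.21 to -0.43, edgeR adjusted p = 0.00659), with 56.6% remaining. All 4 exons had over 10 reads in every sample. The decrease did not pass a test against a fold change of 1.5 (edgeR adjusted p = 0.155). Several genes on the same chromosome moved the same way. The median of chromosome 14 was -0.26, which left Klf5 at -0.56 relative to it, and 4 of its 6 nearest tested genes were lower. These were Dis3, an exosome ribonuclease gene, at -1.19, Bora, a mitotic regulator, at -0.70, Tbc1d4, a Rab GTPase-activating protein gene, at -0.54 and Pibf1, a centrosomal protein gene, at -0.43 on the log2 scale. Their distances from Klf5 ran from 44.2 kb (Pibf1) to 2129 kb (Tbc1d4). Klf12 (-0.26) and 1700110M21Rik (0.34) did not pass. The call of Pibf1 was lost without 393P_vector replicate 1 or any 1 of the 393P_ZEB1 samples, and that of Tbc1d4 without 393P_vector replicate 1. The part of the region in the change of Klf5 was not tested.

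**Figure D3:**
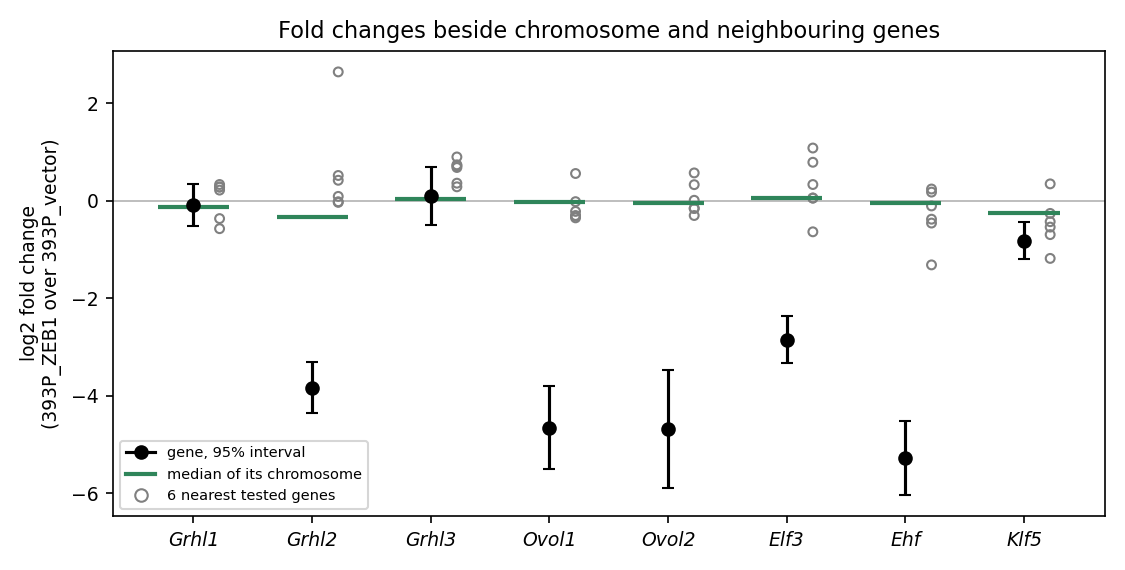
Log2 fold change of the 8 tested factors, 393P_ZEB1 over 393P_vector, with 95% intervals (black), the median of tested genes on the same chromosome (green lines) and the 6 nearest tested genes of each (open circles). Ehf at -5.28, Ovol2, Ovol1, Grhl2 and Elf3 lie below their chromosome median and all their neighbours, while Klf5 at -0.82 lies within the range of its neighbours.

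Relatives of the 9 factors moved to different extents, beside shares over all tested genes of 19.3% lower and 18.3% higher. All 3 CP2 genes outside the grainyhead-like group were lower. Tfcp2l1, known from distal nephron and stem cell identity, fell from 23.3, 20.6 and 20.2 CPM to 0.654, 0.954 and 0.885 CPM, a log2 fold change of -4.68 (edgeR adjusted p = 2.16e-06), while the broadly expressed Ubp1 and Tfcp2 changed by -0.76 and -0.56. The call of Tfcp2 was lost without 393P_vector replicate 1 or 2 or 393P_ZEB1 replicate 2 or 3 (edgeR adjusted p up to 0.0897). Of 4 other ETS genes, Elf1 was lower (-0.57), Elf2 and Elf4 did not pass and Spdef was too low to test. Of 16 other KLF genes 13 were tested, and Klf7, a neuronal factor, was lower (-0.64) and Klf10, a TGF-β-induced factor, higher (0.64). The call of Elf1 was lost when any 1 of the 3 393P_ZEB1 samples was left out (edgeR adjusted p up to 0.092), and that of Klf7 without 393P_ZEB1 replicate 1 or 2 (up to 0.0647). Klf4, which many epithelia express together with Klf5, had a log2 fold change of 0.17 (SE 0.33) and did not pass.

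Genes known as targets of the factors were counted in lists chosen with earlier results of these data known. The shares over all tested genes were 19.3% lower and 18.3% higher. Of 11 junction and epithelial genes regulated by GRHL factors 10 were tested, and 9 were lower and none higher, with a median log2 fold change of -6.23. Rab25, Prss8 and Tgm1 passed the filter through their 393P_vector samples, so a difference in them was a condition of their being tested. Requiring 10 counts in every sample left 6 of the list called lower. The tight junction gene Cldn4 fell from 270 to 0.798 CPM (log2 fold change -8.40) and the splicing factor gene Esrp1 from 88.0 to 0.408 CPM (-7.75). The trafficking GTPase gene Rab25 went from 20.2 to 0.0768 CPM (-8.01), which is near the floor. Cdh1 fell by 4.09 on the log2 scale. Arhgef19 was the exception, at 15.9 ± 3.54 CPM in 393P_vector and 16.3 ± 0.894 CPM in 393P_ZEB1 cells (log2 fold change 0.04, edgeR adjusted p = 0.89), and Dsg1a was too low to test.

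Of 9 genes that OVOL factors repress, 6 were higher and none lower, with a median of 0.74. Both the 6 and the median include Zeb1, the gene the vector carries. Its rise cannot be read as a result about OVOL repression. The mesenchymal factor Twist1 rose by 2.21, N-cadherin (Cdh2) by 2.04 and Zeb1, whose counts include any transgene reads, by 1.26. Zeb2 (0.80), Id2 (0.74) and Vim (0.41) followed. Cdh2 and Zeb1 lie on chromosome 18, whose median log2 fold change was 0.64. Leaving out single samples ended the call of Id2 in 5 of 6 fits, all but that without 393P_vector replicate 3, and that of Vim in 4, those without 393P_vector replicate 1 or 2 or 393P_ZEB1 replicate 2 or 3. Snai1 (0.27), Snai2 (-0.03) and Myc (-0.12) did not pass. Of 9 targets of the ETS factors 5 were tested, of which Cldn7 (-6.03), Tgfbr2 (-1.08) and Krt8 (-0.61) were lower, Stat5a was higher (0.73) and Ptgs2 did not pass, with a median of -0.61. Of 5 targets of Klf5, Fgfbp1, a carrier of fibroblast growth factors, fell from 20.6 to 0.238 CPM (-6.43) and Egfr rose by 0.61. In 393P_ZEB1 replicates 1 to 3 Fgfbp1 measured 0.0561, 0.576 and 0.0819 CPM, so replicates 1 and 3 were near the floor. With 10 counts required in every sample it was not tested, and 0 targets of Klf5 were called lower. Pdgfa, Ccnd1 and Birc5 did not pass, and the median was 0.08. With 1 lower and 1 higher, this list was near the shares over all tested genes, 19.3% and 18.3%. Some of these genes, such as Cdh1, are also known as direct targets of ZEB1, and the part of each factor in their change was not tested.

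**Figure D4:**
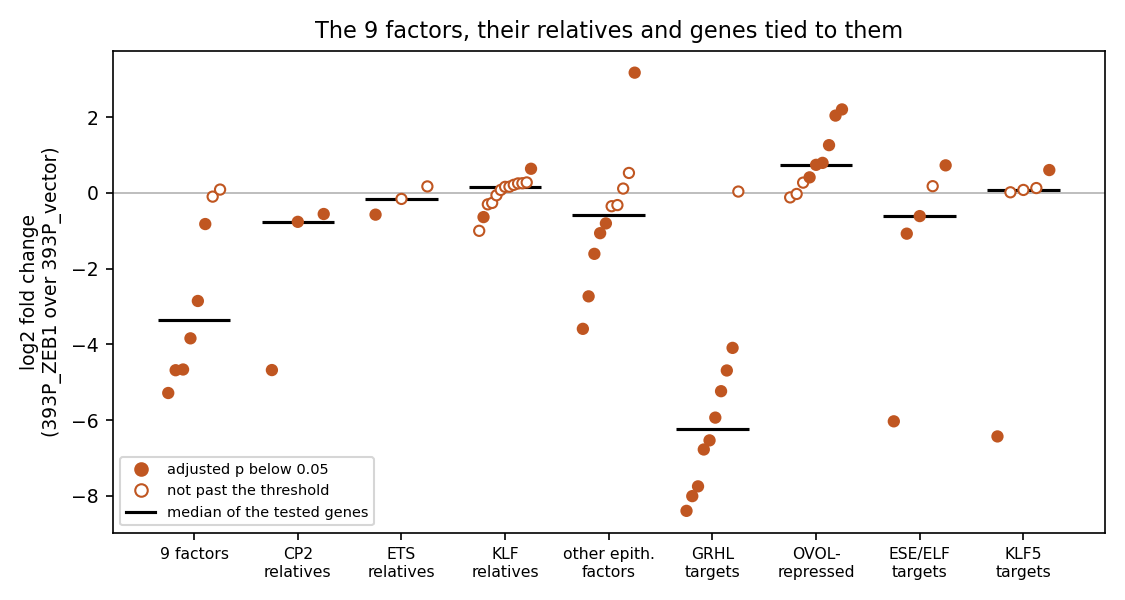
Log2 fold change, 393P_ZEB1 over 393P_vector, of each tested gene among the 9 factors, their relatives, other epithelial factors and known targets, with genes past the edgeR threshold filled and the median of each list as a black bar. GRHL targets lie lowest, with a median of -6.23. Genes repressed by OVOL factors, which include the vector-carried Zeb1, lie mostly above 0, with a median of 0.74.

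The genes whose pattern was most like that of each factor were sought over all 6 samples. Likeness was the root mean square difference of log2(CPM + 0.5) relative to the mean of 393P_vector samples, over genes of at least 1 CPM on average. The nearest to Grhl2 were Fam46b (0.122) and Dact2 (0.144), and to Elf3 Atp2c2 (0.0890) and Kif1a (0.131). Atp8b1 (0.125) was among the 2 nearest to Ehf. For Ovol1 the nearest were Sema5a (0.0942) and Btbd11 (0.0955), for Ovol2 Upk3bl (0.143) and Hyal1 (0.147), and for Klf5 Alg12 (0.0738) and Cdc42ep2 (0.0905). Low levels are compressed on this scale, so near genes need not have like fold changes. Sema5a, with a log2 fold change of -1.90, lay close to Ovol1, with -4.66. Likewise Dact2 (-6.90) lay close to Grhl2 (-3.84), and Atp2c2 (-3.93) and Kif1a (-4.25) to Elf3 (-2.85). For Grhl1 and Grhl3, which moved little, the nearest genes were Ripk4 (0.0289) and Rpap2 (0.0337).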

How the data were processed

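RNA sequencing of 6 samples, 3 393P_vector and 3 393P_ZEB1, grouped by the condition in their labels, gave 1 table per sample. The libraries were made from total RNA for the SOLiD platform. The authors deposited an unnormalized count of reads per feature, over 24214 RefSeq features. Beside it the authors deposited an RPKM, the count divided by exon length and total reads, and the number of exons with over 10 reads. The aligner, counting program and strand setting are not given in the sources used here. Of the features matched by name to a GRCm38 annotation, 81.8% lay within 1000 bases of it at both ends. RPKM were used only to compare levels between genes, and all tests used counts.

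Groups were compared with edgeR 4.0.16 under R 4.3.3 (filterByExpr, minimum count 10, TMM, robust quasi-likelihood fit on condition, Benjamini-Hochberg over 13892 genes, threshold 0.05). The biological coefficient of variation was 0.184. CPM were computed on TMM library sizes, except for the floor, which was scaled to total counts. Single factors and within-sample ratios were compared by a two-sided exact permutation test of log2 values, for which 0.1 is the smallest p. Counting intervals on ratios were exact, at 95%. Alternatives used DESeq2 1.42.0, limma 3.58.1 with voom and sample weights, other filters, thresholds and scalings, the replicate number as a block, and leaving out each sample in turn. Promoter windows were RefSeq sequences of GRCm38.p6, and protein sequences were not used here. Python 3.11.15, SciPy 1.17.1 and pandas 2.3.3 were used for the remaining steps.

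The factors and the gene lists were chosen with earlier results of these data known. From each list, up to 3 genes with the largest change past the threshold were named, plus those a sentence turns on. For each factor, the 3 nearest tested genes on each side and the 2 genes of most similar pattern were examined. A few genes that these rules select are not reported here. No pair of replicates agreed within sampling noise.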

Additional observations from a re-analysis of the deposited data

How the results depend on the processing

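In every edgeR alternative that could test them, and with DESeq2 and limma, the 6 factors called lower kept their direction, and 6 were called lower when any sample was left out. Requiring 10 counts in every sample left 3 called lower, because Ovol1, Ovol2 and Ehf were then not tested. A test against a fold change of 1.5 left 5, since Klf5 (-0.82) had an adjusted p of 0.155, and called 1118 of all genes lower and 1081 higher. Over all genes, limma called 4100 lower and 3971 higher, and a threshold of 0.01 called 1545 and 1584. Leaving out 1 sample gave 1784 to 3776 genes lower and 1861 to 3700 higher, a log2 fold change of -0.022 to 0.18 for Grhl3, which turned negative without 393P_ZEB1 replicate 1, and a log2 difference of -0.60 to 0.30 in the ratio of Ovol2 to Ovol1, which turned positive without 393P_vector replicate 3 (0.02) or 393P_ZEB1 replicate 2. Without 393P_vector replicate 3 the log2 fold changes of Grhl2, Elf3, Ehf, Ovol1, Ovol2 and Klf5 were -4.00, -3.02, -5.22, -4.63, -4.44 and -0.68. Relative to the chromosome median, Grhl1 was at 0.036, Grhl2 at -3.51 and Klf5 at -0.56. Deviations of samples with the same replicate number correlated with r between -0.205 and 0.279, so the numbers were not taken to pair samples, and the fit with the replicate block called the same number of factors, 6, with log2 fold changes of -3.83 for Grhl2, -2.84 for Elf3, -5.28 for Ehf, -4.67 for Ovol1, -4.74 for Ovol2 and -0.82 for Klf5, and 2256 genes lower and 2180 higher. Of 420 recomputed counts of lists, 37 moved by over 1.5 times. Where not stated, the cause of a change was not tested. Depth limits Elf5, Ovol1, Ovol2 and Ehf in 393P_ZEB1 samples, which had at most 11 counts there.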

Other observations

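Other transcription factors of endodermal and surface epithelia did not move as one. Over all tested genes 19.3% were lower and 18.3% higher. Of a list of 15, 10 were tested, and 5 were lower and 1 higher in 393P_ZEB1 cells by edgeR. Hnf4a, which directs hepatic and intestinal differentiation, was the one that rose, from 36.4, 36.3 and 26.9 CPM in 393P_vector samples to 308, 295 and 299 CPM in 393P_ZEB1 samples (log2 fold change 3.18, edgeR adjusted p = 3.54e-06). Its groups were far apart. Among those that fell, Foxa3 and Gata6 had log2 fold changes of -3.59 and -1.61. Tfap2a (-0.80) passed narrowly, and its call was lost in 5 of the 6 fits that left out 1 sample, all but that without 393P_vector replicate 1, as well as with no filter, with the replicate block and with limma, so that 4 factors were then called lower. Foxa1, Foxa2, Sox2 and Sox9 had log2 fold changes of -0.32, 0.12, -0.35 and 0.53 and did not pass the test. With limma, without 393P_vector replicate 3 and without 393P_ZEB1 replicate 3, 2 factors of the list were called higher.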
